A study of Mus musculus with 8 samples.

Results

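The genes described are the potassium channel genes of the mouse, taken as every array probe whose RefSeq accession gives a symbol that starts with Kcn. Kcnj3, Kcnj5, Kcnj6 and Kcnj9, which form G-protein-gated channels, were left out, and so was Kcne2. This rule found 92 genes on 126 probes, of 20660 gene symbols and 55681 non-control probes on the array. They were measured in hippocampal RNA of 3-month-old mice on 8 one-colour arrays. The groups were 4 Ts1Cje mice and 4 wild-type littermates, all C57BL6/J. The mice were described as 4 littermate pairs, but the labels do not say which arrays form a pair, and the comparison treats the groups as unpaired. Ts1Cje is a model of Down syndrome that carries distal chromosome 16 in an extra copy that starts at Sod1 and ends at Zbtb21. Sod1 is disrupted on 1 of its copies, and 1 chromosome 12 lacks its distal end. The RNA came from bulk tissue, so that fewer cells of a type and less RNA per cell cannot be told apart.

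Potassium channels let potassium leave or enter cells along its gradient, and so set the resting potential, end action potentials and limit repetitive firing. Voltage-gated channels are tetramers that open on depolarization, and many travel with auxiliary subunits that change their gating or surface number. Calcium-activated channels couple calcium entry to hyperpolarization, inward rectifiers hold the resting potential and buffer potassium in glia, and two-pore channels carry leak current.

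None of the potassium channel genes tested here differed between Ts1Cje and wild-type hippocampus past the threshold. A gene is given by its brightest probe, a level is the log2 signal minus the 75th percentile of its array, and a difference is Ts1Cje minus wild type on that log2 scale. Of the 92 genes, 76 were tested, because a probe of theirs stood well above background on each of the 4 arrays in Ts1Cje, in wild type or in both, and 16 were not tested, of which 9 were above background on no array. None of the 76 had an adjusted p under 0.05 (limma, Benjamini-Hochberg over all 24025 features), where 0.196% of all features did. The smallest adjusted p of a member was 0.404, for Kcng4. Without adjustment 3 of the 76 members had a p under 0.05, or 3.95%, below the 8.73% of all features. Kcng4 and Kcnu1 were the 2 higher in Ts1Cje, or 2.63% against 4.15% of all features, and Kcnab2 the 1 lower, or 1.32% against 4.57%. The 4 Ts1Cje and 4 wild-type arrays did not overlap for 3 members, again 3.95%, against 6.12% of all features. The smallest p that an exact permutation test of 4 arrays against 4 can give is 0.0286.

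The precision of these comparisons can be read from their intervals. For 69 of the 76 members, or 90.8%, the moderated 95% interval lay within 1.5-fold either way, a log2 fold change of 0.58, where 86.5% of all features had such an interval. The 7 members whose interval reached beyond 1.5-fold were Kcng4, Kcng3, Kcnh7, Kcnh2, Kcnb2, Kcne3 and Kcne1l. The median log2 fold change was -0.01 over the members and -0.01 over all features, and 32 members, or 42.1%, stood above 0, against 47.3% of all features. The median SE was 0.09 for members and 0.08 for all features. A member spanned a median of 0.40 log2 units over the 8 arrays, and 5 members spanned 1 or more, Kcnh7, Kcne3, Kcng3, Kcne4 and Kcnh2. The plot of differences and intervals shows most members close to 0, with the widest intervals at Kcnh7 and Kcne3.

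**Figure D1:**
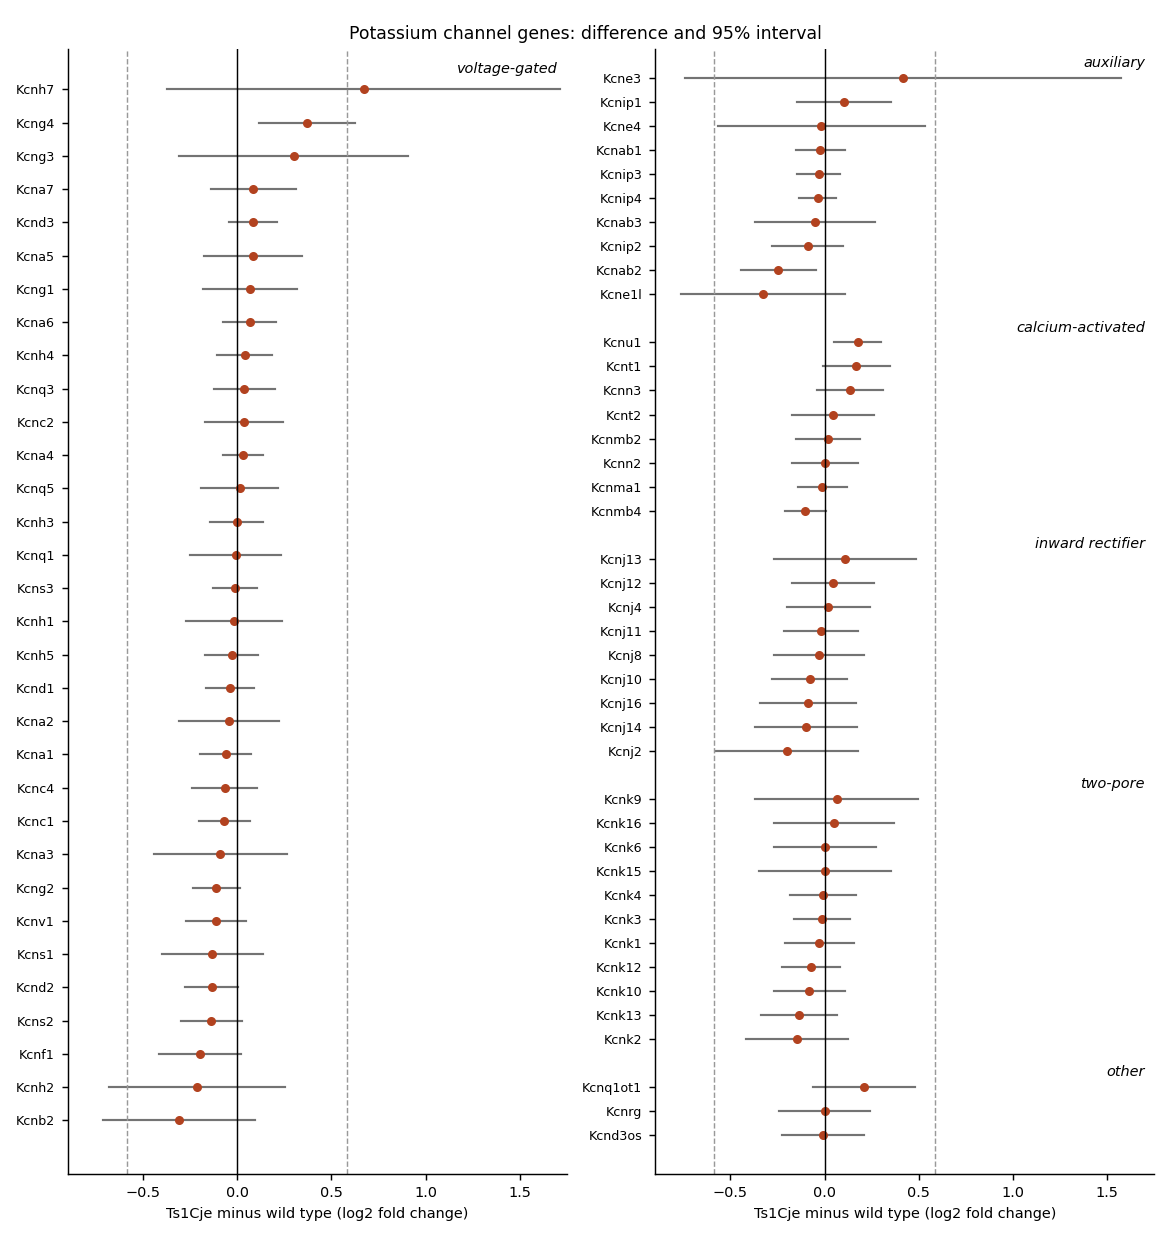
Log2 fold change of 73 of the tested potassium channel genes, Ts1Cje minus wild type (points), with its moderated 95% interval (bars, limma, n = 4 arrays each), by channel class. Dashed lines mark 1.5-fold either way; 66 of these intervals lie within them, and Kcnh7 and Kcne3 have the widest.

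Before the values by class, the promoters of 4 members are shown. Kcng4 had the smallest p, Kcnd2 and Kcnmb4 are neuronal genes with lower levels in Ts1Cje on at least 1 probe with groups that did not overlap, and Kcnj15 lies in the triplicated segment but could not be tested. Each run covers 250 bases before to 50 after the RefSeq start on GRCm38.p6, 5′ to 3′ on the gene's strand, and capitals mark CG, the dinucleotide at which cytosine is methylated in mammals and which reads the same on both strands. The regions are chr8:119635631-119635930 on the minus strand for Kcng4, chr6:21215096-21215395 on the plus strand for Kcnd2, chr10:116473474-116473773 on the minus strand for Kcnmb4 and chr16:95257308-95257607 on the plus strand for Kcnj15.
Kcng4: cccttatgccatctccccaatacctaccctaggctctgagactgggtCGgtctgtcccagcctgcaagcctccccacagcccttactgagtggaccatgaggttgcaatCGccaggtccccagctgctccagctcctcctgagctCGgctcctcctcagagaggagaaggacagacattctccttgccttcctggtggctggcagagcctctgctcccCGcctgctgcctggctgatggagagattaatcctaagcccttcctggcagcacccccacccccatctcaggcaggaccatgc
Kcnd2: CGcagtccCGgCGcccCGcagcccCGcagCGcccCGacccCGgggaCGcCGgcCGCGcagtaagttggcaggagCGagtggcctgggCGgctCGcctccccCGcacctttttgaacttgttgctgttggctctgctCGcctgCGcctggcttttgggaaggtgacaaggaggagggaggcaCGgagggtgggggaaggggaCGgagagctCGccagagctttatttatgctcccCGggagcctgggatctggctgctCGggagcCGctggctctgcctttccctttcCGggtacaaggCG
Kcnmb4: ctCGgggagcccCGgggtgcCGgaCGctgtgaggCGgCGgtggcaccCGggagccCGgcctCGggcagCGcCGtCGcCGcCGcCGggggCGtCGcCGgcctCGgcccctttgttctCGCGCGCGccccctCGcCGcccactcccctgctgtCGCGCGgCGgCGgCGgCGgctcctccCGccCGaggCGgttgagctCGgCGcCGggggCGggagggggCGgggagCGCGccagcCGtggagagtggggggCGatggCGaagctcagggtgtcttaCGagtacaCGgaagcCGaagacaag
Kcnj15: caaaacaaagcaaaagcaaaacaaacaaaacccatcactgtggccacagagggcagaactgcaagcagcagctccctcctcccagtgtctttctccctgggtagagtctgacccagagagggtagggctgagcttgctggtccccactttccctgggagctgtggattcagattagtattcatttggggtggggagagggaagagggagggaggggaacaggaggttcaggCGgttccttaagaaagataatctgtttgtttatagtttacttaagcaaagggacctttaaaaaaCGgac

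These runs hold 4 CG in Kcng4, 26 in Kcnd2, 48 in Kcnmb4 and 2 in Kcnj15. RefSeq promoters were matched for 66 members, 53 of them with 1 promoter, and a gene with several was given their median. The 54 tested members held a median of 12 CG (quartiles 7 and 21), and 57.4% of them held 10 or more. The 12 members that were not tested held a median of 7 CG, and 41.7% held 10 or more. Among all named genes on the array, the median was 19 for the 11975 tested and 3 for the 4399 not tested, of which 76.5% and 18.6% held 10 or more. Of all 32851 promoters in the table, 94.6% held at least 1 CG and 43.5% held 10 or more. Among the members as among all named genes, the tested ones held more CG than those not tested, but the 2 medians of the members lay closer together. These counts are a description of the sequences, with no test.

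**Figure D2:**
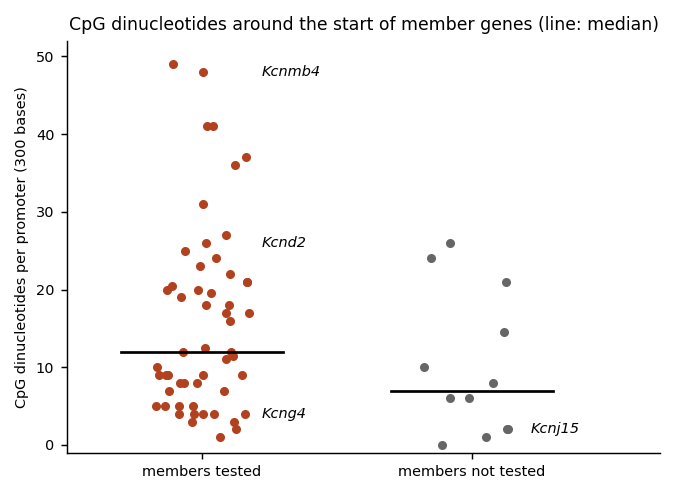
CpG dinucleotides in the 300 bases around the annotated start of 54 tested and 12 untested potassium channel genes (1 point per gene, the median where a gene has several promoters; line: median of the genes, 12 and 7). Kcnmb4 with 48 stands near the top of the tested genes, and Kcng4 with 4 and Kcnj15 with 2 stand near the bottom.

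The triplicated segment holds 2 members, Kcne1 and Kcnj15, and neither was tested, because neither was well above background on all 4 arrays of a group. Kcne1 encodes a single-span subunit best known for slowing the KCNQ1 channel of the heart. Its level was -4.51, -5.20, -5.03 and -7.11 in Ts1Cje, against -4.22, -4.40, -4.31 and -4.83 in wild type. The probe was well above background on 1 Ts1Cje array, replicate 1, and on 3 wild-type arrays, replicates 1, 2 and 3. Every array that was not above background has only a bound, so no fold is given. Of the measured signals, 3 of the 4 Ts1Cje values lay below all 4 wild-type values. These 3 and wild-type replicate 4 were not above background, so no direction is read from their order.

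Kcnj15 encodes an inward rectifier studied mainly in kidney and stomach. The level of its brighter probe was -4.49, -4.82, -5.01 and -4.73 in Ts1Cje, against -4.46, -5.00, -5.48 and -5.43 in wild type. It was well above background on Ts1Cje replicates 1 and 4 and on wild-type replicate 1, and its second probe on none of the 8 arrays. The groups overlapped, since the highest of the 8 values was a wild-type one. As for Kcne1, no fold is given. Chromosome 12 holds 5 members, Kcnf1, Kcnh5, Kcnk10, Kcnk13 and Kcns3, none of them in the deleted end, and their log2 fold changes lay between -0.20 and -0.01 with overlapping groups.

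**Figure D3:**
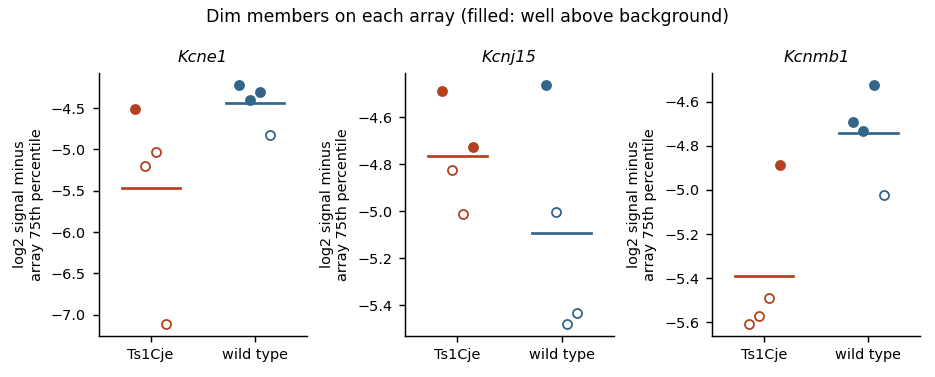
Level of Kcne1, Kcnj15 and Kcnmb1 on each array (log2 signal minus the 75th percentile of the array; Ts1Cje left, wild type right; line: mean of 4 arrays). Filled points are well above background and open points are not; no gene has 4 filled points in a group.

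Among the voltage-gated pore subunits, 35 of 40 genes were tested, of which 15 had a log2 fold change above and 20 below 0, with a median log2 fold change of -0.01. Only Kcng4 of these had an unadjusted p under 0.05. Kcng4 encodes a modifier subunit, which forms no channel alone and changes the gating of Kv2 channels. Its level was -2.67, -3.13, -3.22 and -2.99 in Ts1Cje and -3.37, -3.37, -3.33 and -3.41 in wild type. All 4 Ts1Cje arrays were higher, and they were spread more widely (-3.00 ± 0.24 in Ts1Cje and -3.37 ± 0.03 in wild type, SD, n = 4 each). The fold was 1.29 (95% interval 1.08 to 1.54; limma adjusted p = 0.404). It did not pass the threshold, and the log2 fold change of 0.37 became 0.14 with normexp background correction (adjusted p = 0.691).

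The other 8 tested modifier subunits had log2 fold changes between -0.20 and 0.30. Kcnf1, on chromosome 12 outside the deleted end, averaged 0.15 ± 0.10 on Ts1Cje and 0.35 ± 0.18 on wild-type arrays (SD, n = 4 each; log2 fold change -0.20, SE 0.09, adjusted p = 0.608), and that of its second probe was -0.15. Kcng3 had a level of -1.98 on Ts1Cje replicate 1 and between -3.17 and -2.98 on the other Ts1Cje arrays, against -3.42 to -2.89 in wild type. That 1 array stood apart from the other 7, and the difference of 0.30 (SE 0.26) became 0.02 without it. Kcng1 (0.07), Kcng2 (-0.11), Kcns1 (-0.13), Kcns2 (-0.14), Kcns3 (-0.01) and Kcnv1 (-0.11) complete the group, with log2 fold changes in parentheses, and Kcnv2 was not tested.

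Kcnd2, Kcnd1 and Kcnd3 encode the Kv4 channels, which carry the A-type current of dendrites. Kcnd2 is the main one of hippocampal pyramidal cells. Its level was 3.53, 3.37, 3.53 and 3.48 in Ts1Cje and 3.59, 3.58, 3.73 and 3.53 in wild type. All 4 Ts1Cje values were lower, although the highest Ts1Cje and the lowest wild-type array both round to 3.53. The log2 fold change was -0.14 (SE 0.06, 95% interval -0.28 to 0.01, limma adjusted p = 0.587). Kcnd3 had a log2 fold change of 0.08 (SE 0.06) in the other direction and Kcnd1 one of -0.04 (SE 0.05). The difference is small beside 1.5-fold, and no Kv4 gene passed the test.

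The Kv1 genes encode channels of axons and terminals, among them Kcna1, Kcna2 and Kcna4. Kcna1 had levels of 4.68, 4.48, 4.63 and 4.57 in Ts1Cje and 4.65, 4.59, 4.62 and 4.73 in wild type. The groups overlapped, and the difference of -0.06 had an interval from -0.20 to 0.08. Kcna2 had a log2 fold change of -0.04 (SE 0.12), Kcna3 one of -0.09 (SE 0.15), Kcna4 one of 0.03 (SE 0.05), Kcna6 one of 0.07 (SE 0.06), Kcna7 one of 0.09 (SE 0.10) and the brighter probe of Kcna5 one of 0.08 (SE 0.11). All 7 tested Kv1 intervals lay within 1.5-fold, and Kcna10 was above background on no array.

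Kv2 and Kv3 channels repolarize principal cells and fast-spiking cells. Kcnb2 had levels between -1.13 and -0.97 in Ts1Cje, and -0.82, -0.19, -0.99 and -1.04 in wild type, where replicate 2 stood apart (log2 fold change -0.31, SE 0.18, adjusted p = 0.647). Without that array the log2 fold change of Kcnb2 was -0.12. The Kv3 genes Kcnc1 (-0.07), Kcnc2 (0.04) and Kcnc4 (-0.07) overlapped between the groups (log2 fold changes in parentheses).

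The KCNQ genes encode the subunits of the M-current, which muscarinic receptors close and which limits repetitive firing. Kcnq3 had a log2 fold change of 0.04 (SE 0.07), Kcnq5 one of 0.01 (SE 0.09) and Kcnq1, mainly a channel of heart and epithelia, one of -0.01 (SE 0.11). The groups overlapped for all 3 genes, and their intervals lay within 1.5-fold.

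The ether-a-go-go family held the largest fitted difference among the members. Kcnh7, which encodes a channel of the ERG group, had levels of -2.54, -2.80, -2.59 and -0.63 in Ts1Cje and -2.70, -2.81, -3.20 and -2.54 in wild type. Ts1Cje replicate 4 alone stood apart, and the difference of 0.67 (SE 0.45, adjusted p = 0.683) became 0.17 without it. Kcnh2 had 1 array apart in the other group: its level lay between -1.69 and -1.34 in Ts1Cje, and -1.51, -0.66, -1.48 and -1.58 in wild type (log2 fold change -0.21, SE 0.20, and 0.00 without wild-type replicate 2). Kcnh1 (-0.02), Kcnh3 (-0.00), Kcnh4 (0.04) and Kcnh5 (-0.03) had log2 fold changes near 0 and intervals within 1.5-fold. Kcnh6 and Kcnh8 were not tested.

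Among the auxiliary subunits of voltage-gated channels, 10 of 11 genes were tested, 2 had a log2 fold change above and 8 below 0, and the median log2 fold change was -0.03. Kcnab2 encodes a Kv beta subunit, a cytoplasmic protein related to aldo-keto reductases that binds Kv1 channels. Its level was -0.94, -1.14, -1.14 and -1.16 in Ts1Cje and -0.75, -0.92, -0.71 and -1.02 in wild type. On 3 of the 4 Ts1Cje arrays it was lower than on every wild-type array, while Ts1Cje replicate 1 overlapped the wild-type arrays. The fold was 0.84 (95% interval 0.74 to 0.97; limma adjusted p = 0.486). Kcnab1 (-0.02, SE 0.06) and Kcnab3 (-0.05, SE 0.14) had log2 fold changes closer to 0.

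The KChIP genes encode calcium-binding partners of Kv4 channels. Kcnip1 had a log2 fold change of 0.10 (SE 0.11), Kcnip2 one of -0.09 (SE 0.08), Kcnip3, also known as the repressor DREAM, one of -0.03 (SE 0.05) and Kcnip4 one of -0.04 (SE 0.04). Of the KCNE genes, Kcne1l had levels of -0.89, -0.30, 0.05 and -0.02 in Ts1Cje and 0.01, -0.01, 0.11 and 0.05 in wild type (log2 fold change -0.33, SE 0.19, adjusted p = 0.647). Its second probe had a log2 fold change of -0.16 and was lowest on the same array, Ts1Cje replicate 1. Without this array the log2 fold change of Kcne1l was -0.13. Kcne4 was above background on all 4 Ts1Cje arrays and on 2 wild-type arrays, with a difference of -0.02 (SE 0.24).

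Among the calcium-activated channels and their relatives, 8 of 12 genes were tested, 6 had a log2 fold change above and 2 below 0, and all 8 intervals lay within 1.5-fold. Kcnu1 encodes a relative of the BK channel known from sperm, where it is gated by pH. Its level was -0.06, -0.17, -0.20 and -0.18 in Ts1Cje and -0.26, -0.40, -0.35 and -0.29 in wild type, well above background on all 8 arrays. All 4 Ts1Cje arrays were higher, by a fold of 1.13 (95% interval 1.03 to 1.23; limma adjusted p = 0.428).

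Kcnt1 and Kcnt2 encode sodium-activated channels. Kcnt1 had levels of 0.74, 0.58, 0.55 and 0.41 in Ts1Cje and 0.42, 0.28, 0.44 and 0.46 in wild type. The groups overlapped at Ts1Cje replicate 4, and the difference was 0.17 (SE 0.08, limma adjusted p = 0.590). Kcnt2 had a log2 fold change of 0.04 (SE 0.09) on its brightest probe and of -0.14 with the mean over its probes, so that its direction depended on the probe. None of these relatives of the BK channel passed the threshold.

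Kcnma1 encodes the pore of the BK channel, and Kcnmb4 its neuronal beta subunit. Kcnma1 had levels of 3.33, 3.28, 3.39 and 3.31 in Ts1Cje and 3.29, 3.24, 3.41 and 3.42 in wild type, a difference of -0.01 (SE 0.06). Kcnmb4 had levels of 4.45, 4.43, 4.43 and 4.43 in Ts1Cje and 4.57, 4.44, 4.60 and 4.53 in wild type. The wild-type arrays were higher except replicate 2, which lay just below Ts1Cje replicate 1, and the difference was -0.10 (95% interval -0.21 to 0.01, adjusted p = 0.594). Its second probe had levels of 0.63, 0.58, 0.69 and 0.68 in Ts1Cje and 0.86, 0.75, 1.12 and 0.77 in wild type, with no overlap (log2 fold change -0.23, SE 0.09, limma adjusted p = 0.527 in the fit of all kept probes). Both probes thus lay lower in Ts1Cje, and neither passed the threshold.

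Kcnmb2, another beta subunit, had a log2 fold change of 0.02 (SE 0.07), and Kcnmb1, that of smooth muscle, was not tested. Kcnmb1 had levels of -5.61, -5.57, -5.49 and -4.88 in Ts1Cje and -4.69, -4.73, -4.53 and -5.02 in wild type. It was above background on Ts1Cje replicate 4 and on wild-type replicates 1, 2 and 3, and the groups overlapped. Of the SK genes, whose small-conductance channels shape the afterhyperpolarization, Kcnn2 had a log2 fold change of 0.00 (SE 0.08) and the brighter probe of Kcnn3 one of 0.14 (SE 0.08). Kcnn1 and the beta subunit gene Kcnmb3 were above background on no array and Kcnn4 on 1 wild-type array, so they have no fold.

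**Figure D4:**
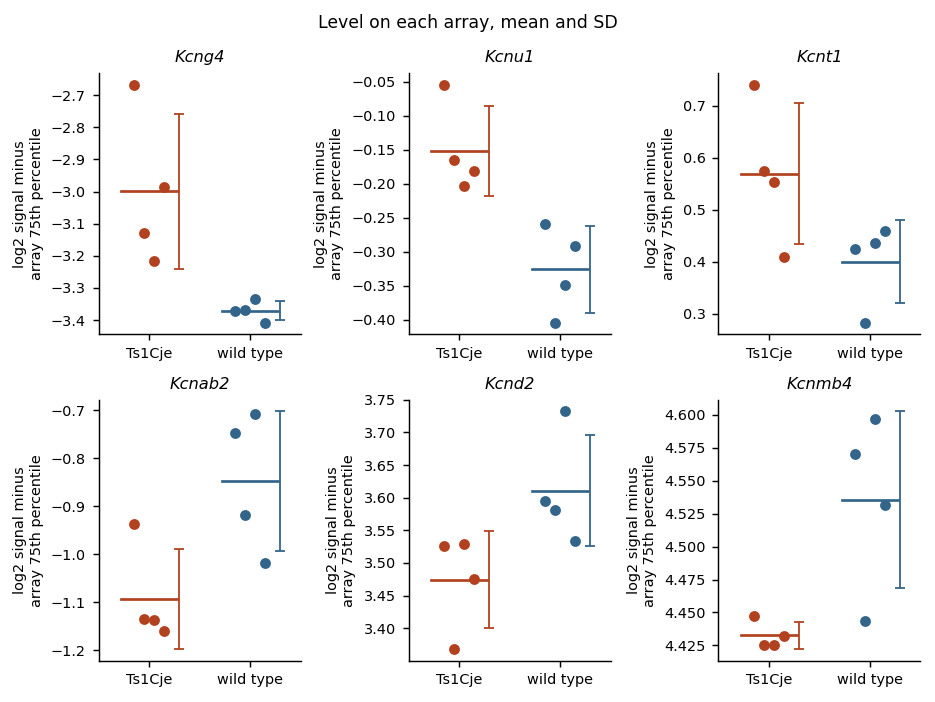
Level of 6 tested genes on each array (points; log2 signal minus the 75th percentile of the array), with the mean (line) and SD (bar) of the 4 Ts1Cje arrays at left and the 4 wild-type arrays at right; axes differ between genes and do not start at 0. Kcng4 and Kcnu1 are higher and Kcnd2 lower on all 4 Ts1Cje arrays, and Kcnt1, Kcnab2 and Kcnmb4 overlap.

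Among the inward rectifiers, 9 of 11 genes were tested, 3 had a log2 fold change above and 6 below 0, and none had an unadjusted p under 0.05. Kcnj10 encodes the channel with which astrocytes take up potassium. Its level was 3.98, 4.04, 4.17 and 4.26 in Ts1Cje and 4.08, 4.28, 4.09 and 4.32 in wild type. The groups overlapped, and the difference was -0.08 (SE 0.09, adjusted p = 0.800). Kcnj16, which can join it in heteromeric channels, had a log2 fold change of -0.09 (SE 0.11). The 4 astrocyte markers Aqp4, Gfap, Aldh1l1 and Gja1 had a median log2 fold change of -0.13, from -0.31 for Gja1 to 0.18 for Aldh1l1. Over the 8 arrays, their mean level had a Pearson r of 0.52 with Kcnj10 (two-sided exact permutation test, adjusted p = 0.332 over 7 such relations). With Kcnj16 r was 0.37 (the same test, adjusted p = 0.517). Without Ts1Cje replicates 1 and 2, these r were -0.34 and 0.81. The part of astrocyte content in the 2 group differences was not tested.

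Kcnj4, a strong rectifier of forebrain neurons, had a log2 fold change of 0.02 (SE 0.10). Kcnj11 (-0.02, SE 0.09) and Kcnj8 (-0.03, SE 0.10) encode the pores of ATP-sensitive channels in neurons and in vessel walls (log2 fold changes in parentheses). Kcnj12 had a log2 fold change of 0.04 (SE 0.09) and Kcnj14 one of -0.10 (SE 0.12). Kcnj2 was above background on 3 Ts1Cje and 4 wild-type arrays and had a log2 fold change of -0.20 (SE 0.16). All 9 intervals lay within 1.5-fold, and Kcnj1, the channel of the kidney, was above background on no array.

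Kcnj13 encodes a channel of choroid plexus and retinal pigment epithelium. Its level was -1.28, -1.13, -1.16 and -1.15 in Ts1Cje and -1.15, -1.75, -0.89 and -1.37 in wild type. Wild-type replicate 2 was the lowest and replicate 3 the highest of the 8 arrays, and the second probe of Kcnj13 had the same 2 extremes, -2.54 and -0.63. Ttr, the transthyretin gene and main choroid plexus marker, was also lowest on wild-type replicate 2 (-0.17) and highest on replicate 3 (1.99). Folr1, another marker, ran the other way, with its highest level on wild-type replicate 2 (-1.09) and a lower one on replicate 3 (-1.46). The summed signal of the 5 tested choroid plexus markers was 2.91 to 4.40 in Ts1Cje and 2.48 to 5.65 in wild type, in multiples of the array's 75th percentile. These markers include Clic6, which is itself triplicated and had a log2 fold change of 0.74 (SE 0.24). Their sum and mean level are thus no measure of choroid plexus content alone. Over the 8 arrays, Kcnj13 and the mean level of the markers had a Pearson r of 0.64 (two-sided exact permutation test, adjusted p = 0.303 over 7 such relations) and a Spearman rho of 0.31 (the same test, exact, adjusted p = 0.821). Without wild-type replicates 2 and 3, r was -0.59, so the relation rests on those 2 arrays. The part of choroid plexus content in the Kcnj13 difference of 0.11 (SE 0.16) was not tested.

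Among the two-pore channels, 11 of 14 genes were tested, 4 had a log2 fold change above and 7 below 0, and all 11 intervals lay within 1.5-fold. Kcnk2 encodes a leak channel that responds to stretch and lipids. Its level was -1.69, -1.79, -1.92 and -1.72 in Ts1Cje and -1.77, -1.84, -1.30 and -1.61 in wild type, and its difference of -0.15 (SE 0.12, adjusted p = 0.725) was the largest of the class. The groups overlapped, and wild-type replicate 3 was the highest array. Kcnk10, of the same branch and on chromosome 12 outside the deleted end, had a log2 fold change of -0.08 (SE 0.08).

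Kcnk3 and Kcnk9, the acid-sensitive leak channels, had log2 fold changes of -0.02 (SE 0.07) and 0.06 (SE 0.19). Kcnk1, of neurons and astrocytes, had a log2 fold change of -0.03 (SE 0.08). Kcnk12 (-0.07), Kcnk13 (-0.14), Kcnk4 (-0.01), Kcnk6 (0.00), Kcnk15 (0.00) and Kcnk16 (0.05), with log2 fold changes in parentheses, overlapped between the groups. Kcnk5, Kcnk7 and Kcnk18 were not tested. The log2 fold changes of the class spanned -0.15 to 0.06.

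The symbols that start with Kcn also include genes that encode no channel. Kcnrg, a soluble regulator, had a log2 fold change of 0.00 (SE 0.10). Kcnq1ot1, the long noncoding RNA of an imprinted region, had levels of 0.68, 0.90, 1.00 and 0.62 in Ts1Cje and 0.56, 0.76, 0.34 and 0.69 in wild type (log2 fold change 0.21, SE 0.12, adjusted p = 0.644). The antisense transcript Kcnd3os had a log2 fold change of -0.01 (SE 0.09), and Kcnmb4os1 was above background on no array.

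Of the 126 member probes, 102 were kept, 98 were well above background on all 8 arrays and 16 on none. For 24 members 2 or more probes were kept, and the probes of 16 had 1 sign. The gap between their log2 fold changes was under 0.2 for 20 members, with a median of 0.10. In the plot of 1 probe against the other, Kcne3, Kcna5, Kcnn3 and Kcnt2 stand away from the rest.

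Kcne3 encodes a subunit that partners KCNQ1 in epithelia. The level of its brighter probe was -1.44, -3.55, -3.97 and -3.57 in Ts1Cje, against -3.46, -3.90, -3.48 and -3.35 in wild type, and that of its other probe was -3.79, -4.34, -4.19 and -4.22 in Ts1Cje, against -4.14, -1.42, -4.03 and -3.89 in wild type. Each probe had 1 high array, in different mice, and the log2 fold changes were 0.41 (SE 0.50) and -0.76 (SE 0.57). Without Ts1Cje replicate 1 the brighter probe gave -0.15.

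Kcna5 had a smaller log2 fold change on its brighter probe (0.08) than on its other probe, which had levels of -3.45, -4.24, -1.88 and -0.49 in Ts1Cje and -3.77, -4.33, -3.00 and -3.92 in wild type (log2 fold change 1.24, SE 0.75, adjusted p = 0.673). The Ts1Cje arrays of this probe were more scattered than the wild-type ones, with replicate 4 the highest of the 8. The other probe of Kcnn3 had levels of -3.82, -3.58, -2.34 and -3.67 in Ts1Cje and -4.20, -3.69, -4.71 and -4.46 in wild type (log2 fold change 0.91, SE 0.35, adjusted p = 0.537). The probes of Kcnt2 had log2 fold changes of 0.04 and -0.33 (SE 0.22). No member probe passed the threshold, where the smallest adjusted p was 0.418, and 5 of the 102 had an unadjusted p under 0.05, against 8.44% of all 32596 kept probes.

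**Figure D5:**
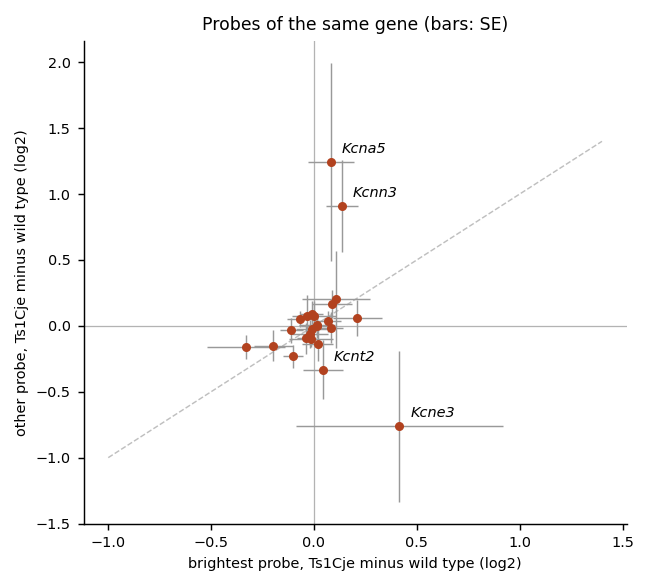
Log2 fold change (Ts1Cje minus wild type) of the brightest probe (horizontal) and of the other kept probe farthest from it (vertical) for 24 genes, with SE bars; dashed line: equal values. Most genes lie near 0 on both axes, and Kcna5, Kcnn3, Kcne3 and Kcnt2 differ by 0.38 to 1.18.

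The genes that work with these channels were listed by role. The list held 37 genes, among them the Kv4 partner Dpp6, the Kv2 partner Amigo1, the sulfonylurea receptors Abcc8 and Abcc9, the axonal anchors Ank3 and Cntnap2, the cation channel Hcn2, and calmodulin, the calcium sensor of SK and KCNQ channels. Lrrc26, Lrrc52 and Hcn4 were not tested. Of the 34 tested, 18 had a log2 fold change above and 16 below 0, with a median of 0.00. All 34 intervals lay within 1.5-fold, against 86.5% of all features. None had an adjusted or an unadjusted p under 0.05, against 0.196% and 8.73% of all features. Akap5, an anchor of kinases at KCNQ channels, had the smallest adjusted p, 0.621, and had levels of 3.04, 3.07, 3.02 and 3.08 in Ts1Cje and 2.98, 2.99, 3.00 and 2.90 in wild type. Its 4 Ts1Cje arrays were higher without overlap, by 0.09 (SE 0.04), where 6.12% of all features had groups that did not overlap.

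Across the whole array, 59.9% to 63.1% of probes were well above background per array. Of 8 markers of hippocampal neurons, 7 were tested, with a median of -0.11 (log2 fold change), and Iyd was not. They did not move as 1 group: the values ran from -0.25 for C1ql2 to 0.30 for Wfs1, and 2 were above 0. The 4 ependymal markers all stood below 0, with a summed signal of 4.55 to 5.48 in Ts1Cje and 5.37 to 7.09 in wild type, and no marker of these lists had an adjusted p under 0.05. Over the 8 arrays, Kcnk13 had a Pearson r of 0.66 with the mean level of the microglia markers. With interneuron markers r was 0.58 for Kcnc2 and 0.30 for Kcnc1, and with pericyte and mural cell markers 0.07 for Kcnj8. Adjusted p was 0.303 to 0.877 (two-sided exact permutation test, 7 relations). Without Ts1Cje replicates 1 and 4, r of Kcnk13 was -0.05. Without wild-type replicates 1 and 4, r was 0.79 for Kcnc2 and -0.36 for Kcnc1. The part of the markers in the values of the channel genes was not tested.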

How the data were processed

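Per the labels' protocols, 0.1 µg of total hippocampal RNA per sample was labelled with Cy3, and the scans were read with Agilent Feature Extraction 10.10.1.1, per the file headers. The deposited values are intensities per spot, background-corrected by that software and not normalized between arrays. Outlier-flagged spots were left out, the log2 signals of spots of 1 probe were averaged, and each array was centred on its 75th percentile over 55681 non-control probes. A probe was kept when all 4 arrays of a group measured it well above background (32596 probes), and a gene is its brightest kept probe. Symbols came through RefSeq accessions (assembly GRCm38.p6, while the array was designed on mm9). The comparison used lmFit and eBayes of limma 3.58.1 (R 4.3.3) without a block, with Benjamini-Hochberg adjustment over 24025 features. P-values set the group difference against the spread between labelled replicates, taken as separate mice. That spread is moderated by eBayes over all features. All arrays lay on 1 slide in 1 scan, and slide column and genotype cannot be told apart. Kcnj15, Kcne1, the main brain channels of each class, members with small p and no overlap, members with the widest gaps between probes and members above background in 1 group only were named by rule, and other members are given to account for the set. Values of some genes are not reported here, and counts include them. Members and lists were chosen with earlier results of these data known. Plots were drawn with matplotlib 3.10.9. The fit was tested on simulated data. The alternatives tried were other background correction, normalization, filters, probe rules, weights, priors and blocks, and each array left out.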

Additional observations from a re-analysis of the deposited data

Results flagged for a closer look

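Among 86 sets of 4 values, 5 held an array whose gap to the nearest other array, divided by the range of the set, exceeded the 95% critical value of Dixon's test, where chance gives about 4.3. For Kcnh7, Ts1Cje replicate 4 stood at -0.63 and the other Ts1Cje arrays between -2.80 and -2.54 (ratio 0.878). For Kcne3, Ts1Cje replicate 1 stood at -1.44 and the others between -3.97 and -3.55 (ratio 0.834). For Kcnab2, Ts1Cje replicate 1 stood at -0.94 and the others between -1.16 and -1.14 (ratio 0.889). For Kcnip3, Ts1Cje replicate 2 stood at 4.92 and the others between 4.98 and 4.99 (ratio 0.839). For Kcna4, wild-type replicate 4 stood at 1.80 and the others between 1.73 and 1.74 (ratio 0.85). The gaps of Kcnh7 and Kcne3 were far wider than those of the other 3 genes.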

How the results depend on the processing

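No member passed the adjusted threshold in any of the 19 alternatives, and the lowest adjusted p of a member was 0.255, for Kcng4 with array weights. Without adjustment the count of 3 of 76 members became 5 with normexp background, where 7.74% of all features had such a p. It became 5 of 92 without a filter on dim probes (6.01% of all features), which adds the dim genes Kcnmb1 and Kcnn1. It was 5 with the mean over probes (8.87% of all features) and 5 with the replicate number as a block (11.2%). With a trended and robust prior it was 7 (9.15%). With 1 array left out it ranged from 2 to 5, where the share of all features ranged from 6.48% to 11.5%. The 5 were reached without wild-type replicate 2 (9.68%). The median log2 fold change became -0.063 with the array median as centre, where that of all features was -0.058. The 43 named members tested gave 815 values over the alternatives, of which 12 moved by 1 SD or more. Kcng4 gave 0.14 with normexp background, against 0.37, and had an unadjusted p under 0.05 in 18 of 19 alternatives, as did Kcnu1, while Kcnab2 had one in 14. Kcnn3 gave 0.52 and Kcna5 0.66 with the mean over probes, and Kcna5 gave 0.62 with normexp background. Same-numbered arrays deviated together with r from 0.050 to 0.237. Ts1Cje replicates 1, 2 and 4 correlated best with the wild-type array of the same number, replicate 4 by little (0.050 against 0.046). Ts1Cje replicate 3 correlated better with wild-type replicate 4 (0.141) than with wild-type replicate 3 (0.106). These values do not settle whether the numbers mark the 4 littermate pairs. As the labels do not say so either, the replicate block was used as an alternative only. Over all features, the count of 47 became 1 with the replicate block, 84 with array weights, 71 with the trended prior, 25 with the array median and 23 with no filter, and 13 (without Ts1Cje replicate 4) to 44 (without wild-type replicate 3) with 1 array left out. Kcne1 and Kcnj15 could be fitted only with no filter. The number of arrays and the signal over background of dim probes limit the precision.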
